A study of Mus musculus with 12 samples.

Results

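The experiment described here compared mouse alveolar macrophages kept in culture for 24 h with 50 nM vitamin D3 against the same kind of cell kept for 24 h without it. All of these cells came from wild-type mice and each condition had 2 libraries, so that 4 of the 12 RNA-seq libraries of the study entered the comparison. The genes described are the 12748 of 23413 in the count table that passed a filter on low counts. The other 8 libraries came from alveolar macrophages that were not cultured, taken from wild-type mice and from mice labelled as vitamin D receptor (Vdr) knockouts, at 10 and 4 weeks of age, with 2 libraries in each group. For 2 of the 4 libraries at 10 weeks the description codes conflict with the genotype labels. The genotype labels are used throughout, so wild type at 10 weeks rests on that label. No culture carried the knockout, and the age of the mice behind the cultures was not given in the labels. The labels named the agent only as vitamin D3, and did not say whether it was the precursor or its active, hydroxylated form.

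Vitamin D3 acts through the vitamin D receptor, a nuclear receptor that binds DNA together with a retinoid X receptor and changes the transcription of its target genes once its hydroxylated ligand is bound. The enzyme encoded by Cyp27b1 makes that active form and the enzyme encoded by Cyp24a1 breaks it down, so that Cyp24a1 is both a classical target of the receptor and part of a negative feedback loop. Alveolar macrophages live in the air spaces of the lung, where they clear surfactant lipid, dead cells and inhaled particles, and their identity depends on GM-CSF and the transcription factor PPAR-gamma.

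The 4 culture libraries held 14023929 to 23233674 counts, and 1 count corresponded to at most 0.081 CPM, which are counts scaled to the library total. CPM are given here after TMM scaling, which adjusts each library total for differences in RNA composition. The source names number the wild-type sources, differently for the 2 libraries of each condition, but do not say whether a number stands for an animal or a pool, so the p-values below measure the spread between libraries, which may be technical. With 2 libraries against 2, an exact rank test of a single gene cannot give a two-sided p under 0.333. Each gene was therefore tested with the edgeR quasi-likelihood F test in 1 fit of all 12 libraries, which pools information on the spread across genes and groups. In bulk RNA, fewer cells of a type and less RNA per cell cannot be told apart.

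Vitamin D3 changed 1356 of the 12748 genes (10.6%) at a Benjamini-Hochberg adjusted p under 0.05 in the edgeR test. Of these, 638 rose (5%) and 718 fell (5.63%). The change was at least 2-fold for 273 genes that rose and for 222 that fell, and the median size of a change among the 1356 genes was 0.78 on the log2 scale. The median log2 fold change over all tested genes was 0. In all 1356 genes the treated libraries lay on 1 side of the untreated ones, as they did in 48.9% of all tested genes. The genes that rose furthest encode a vitamin D-degrading enzyme (Cyp24a1), secreted growth factors (Hbegf, Vegfa, Pdgfa) and several products that were close to silent without the agent (Mdfi, Tenm4, Dusp14). The genes that fell furthest included Gpr34, a G protein-coupled receptor for lysophosphatidylserine, and Tgfbi, a secreted matrix protein induced by TGF-beta.

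**Figure D1:**
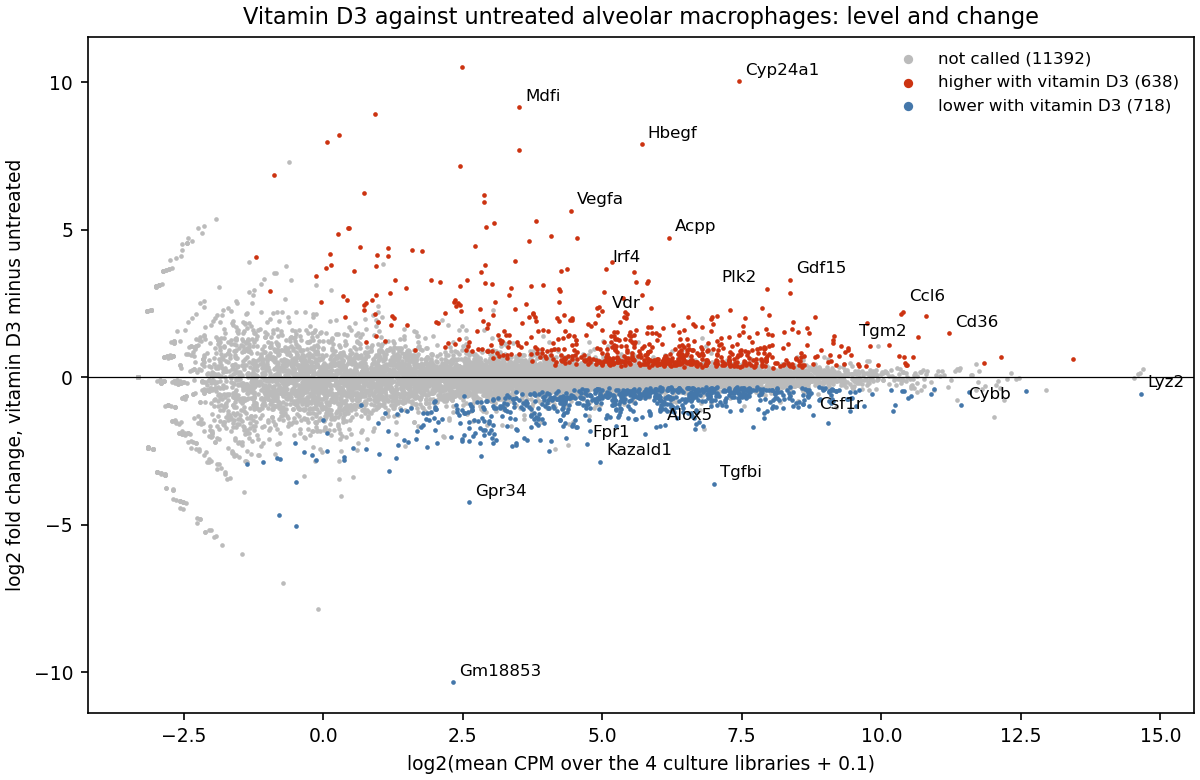
Mean level (horizontal axis, log2 of CPM plus 0.1 over the 4 culture libraries) against the log2 fold change of vitamin D3 over untreated (vertical axis), 1 point per tested gene. Red points are the 638 genes that rose and blue points the 718 that fell; apart from Gm18853, the blue points reach less far from 0 than the red ones.

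The number of genes past the threshold depended on the library. Of the 1356 genes, 454 also passed it in each of the 4 fits that left out 1 culture library, 254 of them higher and 200 lower. Without vitamin D3 replicate 1 the count fell to 545 genes, and without untreated replicate 1 to 811. It was 1149 without untreated replicate 2 and 1345 without vitamin D3 replicate 2. The labels give the letter a to replicate 1 and the letter b to replicate 2 of each condition. The source names match for the letter a and differ for the letter b, so the pairing by letter is in doubt. The replicate 1 libraries were also deeper, at 20726255 and 23233674 counts against 14023929 and 16116777 in replicate 2, and carry another series of title numbers. The part of depth or series in the differences below was not tested. From untreated to treated, the genes that rose did so by a median of 0.943 (log2 CPM) between the libraries with letter a and of 0.777 between those with letter b. The rise was larger in replicate 1 for 486 of 638 genes (76.2%). For the genes that fell, the medians were -0.889 and -0.601, and 601 of 718 (83.7%) fell further in replicate 1. Among the 11392 genes not called, the difference was also larger in replicate 1 for 6831 (60%). On the first principal component of the 4 libraries, which carried 59.4% of their variance, the untreated libraries lay at -33.7 and -35.3, vitamin D3 replicate 1 at 44.2 and vitamin D3 replicate 2 at 24.9. Genes named below kept their call without any 1 of the 4 culture libraries, unless a library is named beside them.

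**Figure D2:**
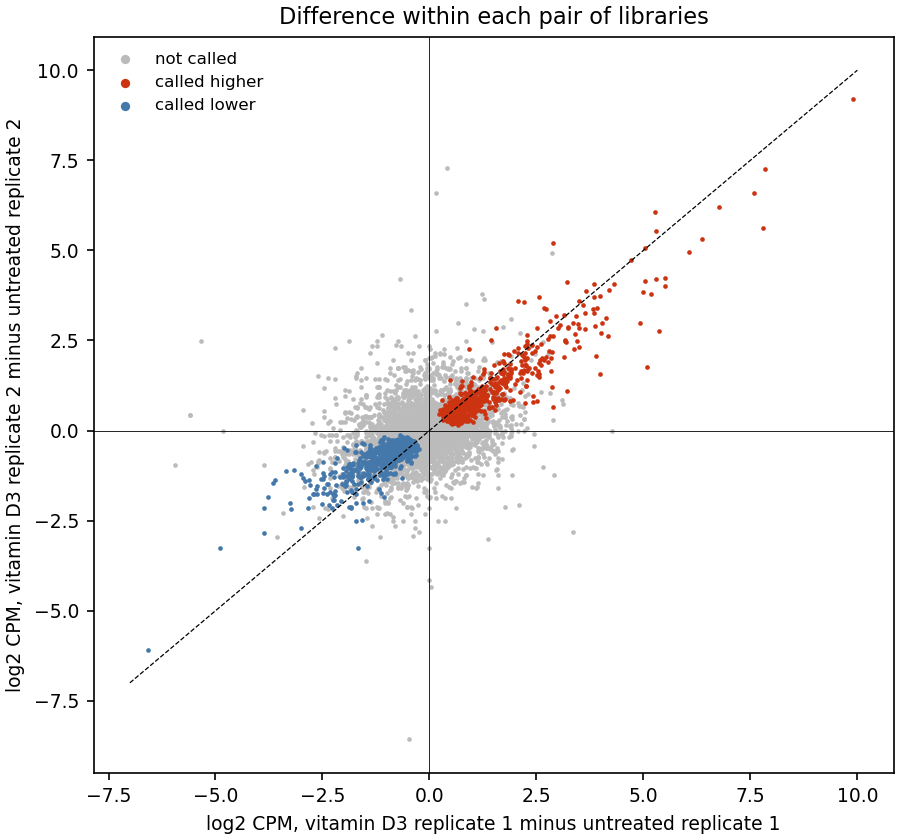
Log2 CPM difference between vitamin D3 and untreated in replicate 1 (horizontal axis) and in replicate 2 (vertical axis), 1 point per tested gene, with the line of equal change dashed. Genes that rose (red) lie at the upper right and genes that fell (blue) at the lower left, and 76.2% and 83.7% of them lie on the side of the line where replicate 1 changed further, against 60% of the genes not called.

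Promoter windows were taken from RefSeq (build GRCm38.p6) and matched by gene name, which gave a window for 10170 of the 12748 tested genes and for 1086 of the 1356 that changed. Cyp24a1, Hbegf, Gpr34, Nxph3, Hid1, Dgat1 and Ciita had no entry. A window ran from 250 bases before to 50 bases after the start of the gene. The receptor is known to bind DR3 elements, pairs of hexamers 3 bases apart. Each hexamer could be AGGTCA or else AGTTCA, as well as GGGTCA or else GGTTCA, and both strands were searched. The 250 bases before the start are printed 5′ to 3′ for 3 genes that rose. They are Vdr itself (chr15:97908297-97908546, minus strand), Acpp, the gene with the smallest p (chr9:104337723-104337972, minus strand), and Cd36 (chr5:17835897-17836146, minus strand). Among genes named by the fixed rule, Cd36 alone had a window that held a DR3 pair with at most 1 mismatch. Cell type markers named only for their level were left out of this unless they passed the test. Capitals mark hexamers, read on either strand, and in Cd36 both hexamers of the pair.
Vdr: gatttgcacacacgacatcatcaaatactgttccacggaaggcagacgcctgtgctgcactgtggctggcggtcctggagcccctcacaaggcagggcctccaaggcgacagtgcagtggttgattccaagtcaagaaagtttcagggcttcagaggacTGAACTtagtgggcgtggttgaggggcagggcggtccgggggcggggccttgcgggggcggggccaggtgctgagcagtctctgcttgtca
Acpp: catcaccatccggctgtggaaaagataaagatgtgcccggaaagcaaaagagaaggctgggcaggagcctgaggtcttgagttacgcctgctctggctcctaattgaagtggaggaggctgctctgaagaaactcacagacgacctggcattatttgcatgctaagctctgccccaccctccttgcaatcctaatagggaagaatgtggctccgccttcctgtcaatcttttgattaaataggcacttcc
Cd36: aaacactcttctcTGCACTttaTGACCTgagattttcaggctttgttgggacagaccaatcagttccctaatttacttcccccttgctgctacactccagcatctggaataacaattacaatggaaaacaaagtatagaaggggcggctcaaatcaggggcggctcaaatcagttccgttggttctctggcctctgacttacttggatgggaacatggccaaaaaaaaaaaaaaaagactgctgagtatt
The Vdr sequence held 1 hexamer and no pair, the Acpp sequence held 0 hexamers, and the Cd36 sequence held 1 pair with 1 mismatch.

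An exact DR3 pair was present in 12 of 27025 genes with a window (0.0444%), in 2 of the 10169 tested genes searched (0.0197%), in 0 of the 518 genes that rose and in 0 of the 568 that fell. With up to 1 mismatch, a search chosen after seeing the data, a pair was present in 2.7% of the genes that rose (14 genes), in 1.76% of those that fell (10 genes), in 1.54% of tested genes and in 2.02% of all genes. A single hexamer before the start was found in 39.6% of the genes that rose, 40.7% of the genes that fell, 37.9% of the tested genes not called, 38.2% of all tested genes and 41.8% of all genes with a window. A window without a pair says only that these letters were not in it.

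Among genes of vitamin D metabolism, Cyp24a1 rose and Cyp27a1 fell, out of 4 tested. Cyp24a1 stood at 0.383 and 0.243 CPM in the untreated libraries and at 485 and 216 CPM with vitamin D3, a log2 fold change of 10.04 ± 0.53 (SE; edgeR adjusted p = 1.59e-05) or 1052-fold. It was at the level of a few counts without the agent, and no count was present in any fresh wild-type library. Cyp27a1, a mitochondrial sterol hydroxylase that can also hydroxylate vitamin D, stood at 8.21 and 10.4 CPM untreated and at 3 and 2.6 CPM with vitamin D3 (log2 fold change -1.72 ± 0.33, edgeR adjusted p = 0.00617). Both treated libraries were lower than both untreated ones. Cyp2r1, a vitamin D 25-hydroxylase, and Dhcr7, which consumes the vitamin D precursor 7-dehydrocholesterol, had log2 fold changes of 0.02 and 0.07 that did not pass the test. Cyp27b1 was under the filter, with 0 and 3 counts in the untreated libraries and 0 in both treated ones.

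Vdr itself rose. Its level was 7.82 and 7.61 CPM in the untreated libraries and 72.1 and 42.4 CPM with vitamin D3 (log2 fold change 2.89 ± 0.36, edgeR adjusted p = 0.000433), or 7.43-fold. The treated libraries differed from each other by more than the untreated ones did, and both lay above them. Fresh wild-type macrophages carried 79.6 and 127 CPM at 10 weeks and 56.5 and 57.7 CPM at 4 weeks, so that the untreated cultures held the lowest Vdr levels among the wild-type libraries. Of the 13 tested members of the receptor complex (Vdr, retinoid X receptors, co-activators and co-repressors), Vdr rose and Ncoa3, a steroid receptor co-activator, fell. The call of Ncoa3 (log2 fold change -0.39, edgeR adjusted p = 0.0384) was lost without untreated replicate 1, vitamin D3 replicate 1 or vitamin D3 replicate 2 (adjusted p = 0.219, 0.258 and 0.0643). The list held 4 calls without untreated replicate 2. Rxra, a retinoid X receptor that pairs with Vdr, stood at 313 and 249.97 CPM untreated and 212 and 216 CPM with vitamin D3, which did not pass the test (edgeR adjusted p = 0.076).

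Of 24 tested genes known as Vdr targets in some tissue, 12 changed (50%, against 10.6% of all tested genes), 7 higher and 5 lower. Their median log2 fold change was 0.29 against 0 over all genes. All gene lists here were drawn up with earlier results of these data known, so their shares are descriptions and not tests. Of the 12, 6 kept their call without any 1 culture library: Cyp24a1, Hbegf, Vegfa, Gadd45a and Nrip1 rose, and Ccnd3 fell. Gadd45a, a DNA damage and growth arrest gene, went from 8.48 and 10.4 CPM to 95.2 and 80.9 CPM (log2 fold change 3.23 ± 0.22, edgeR adjusted p = 1.59e-05). Nrip1, a nuclear receptor co-repressor, had a log2 fold change of 1.29 ± 0.23, and Ccnd3, encoding cyclin D3, one of -0.78 ± 0.10. Spp1, the osteopontin gene, was at 877 and 493 CPM untreated and at 4230.2 and 1542 CPM with vitamin D3 (log2 fold change 2.08 ± 0.43), and its call was lost without untreated replicate 2 (edgeR adjusted p = 0.0655) or vitamin D3 replicate 1 (0.115). The list held 6 calls without vitamin D3 replicate 1 and 8 to 10 without any other culture library. Camp, the cathelicidin gene, was under the filter, as were Trpv6, S100g, Igfbp3, Il10, Orm1 and Tnfsf11.

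Secreted growth factors gave some of the furthest changes. Of 19 tested, 5 rose and 2 fell (36.8%), with a median log2 fold change of 0.11. Hbegf, a membrane-anchored and shed ligand of the EGF receptor, stood at 0.438 and 0.405 CPM untreated and at 127 and 79.9 CPM with vitamin D3 (log2 fold change 7.91 ± 0.43, edgeR adjusted p = 4.03e-06). Vegfa, the main angiogenic factor, went from 0.492 and 1.3 CPM to 41.1 and 43.5 CPM (log2 fold change 5.64 ± 0.39, edgeR adjusted p = 1.59e-05). The untreated levels were low, and the fresh wild-type libraries also held no more than 0.554 CPM of Hbegf and 2.45 CPM of Vegfa. Pdgfa, a platelet-derived growth factor chain, went from 0.164 and 0.729 CPM to 12.8 and 15.9 CPM (log2 fold change 5.10 ± 0.75, edgeR adjusted p = 0.0012). For all of these genes both treated libraries stood far above both untreated ones.

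Pdgfc, another platelet-derived growth factor, moved the other way, from 20.2 and 18.5 CPM untreated to 4.23 and 5.13 CPM with vitamin D3 (log2 fold change -2.06 ± 0.16, edgeR adjusted p = 2.35e-05). Csf1, Osm and Igf1 passed the test but lost their calls without some library. Csf1, the ligand of the M-CSF receptor, and Osm, encoding oncostatin M, were higher (log2 fold changes 2.41 and 2.16), and Igf1 was lower (-1.75). Without untreated replicate 1 the edgeR adjusted p was 0.195 for Csf1, 0.0774 for Osm and 0.0608 for Igf1. Without vitamin D3 replicate 1 it was 0.0763 for Osm and 0.141 for Igf1, and without vitamin D3 replicate 2 it was 0.131 for Csf1. The list held 4 calls without untreated replicate 1.

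Several genes that rose had almost no counts in the untreated libraries. Gsta2 had 0 counts over both untreated libraries and 393 over both treated ones, which is at least 116-fold higher when 3 counts over the untreated group are taken as the floor. Reads of Gsta2 may be shared with near-identical glutathione transferase copies, so its identity is uncertain. Mdfi, an inhibitor of myogenic transcription factors, had 1 count untreated and 850 with vitamin D3, a ratio of 753 (exact 95% counting interval 135 to 29800). Tenm4, a teneurin transmembrane protein, had 3 and 805 counts, a ratio of 238 (81.1 to 1160). Dusp14, a dual-specificity phosphatase, had 2 and 363 counts, a ratio of 161 (44.2 to 1330). These intervals cover counting error only.

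Foxf2, a forkhead transcription factor, went from 0.274 and 0.162 CPM to 15.3 and 13.1 CPM (log2 fold change 5.93 ± 0.60, edgeR adjusted p = 0.000104). Nxph3, Ston2 and Micall2 were likewise at no more than 1.3 CPM in both untreated libraries, with log2 fold changes of 6.16 ± 0.71, 5.24 ± 0.58 and 4.78 ± 0.70. Hid1, a protein of dense-core vesicle formation, went from 0.602 and 0.81 CPM to 23.5 and 31.1 CPM (log2 fold change 5.28 ± 0.37, edgeR adjusted p = 1.59e-05). Acpp, which encodes prostatic acid phosphatase, gave the smallest p of the experiment. It stood at 5.91 and 4.53 CPM untreated and at 158 and 124 CPM with vitamin D3 (log2 fold change 4.73 ± 0.21, edgeR adjusted p = 1.06e-06). The untreated Acpp levels were themselves above those of the fresh wild-type libraries, where it stood at no more than 0.908 CPM.

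**Figure D3:**
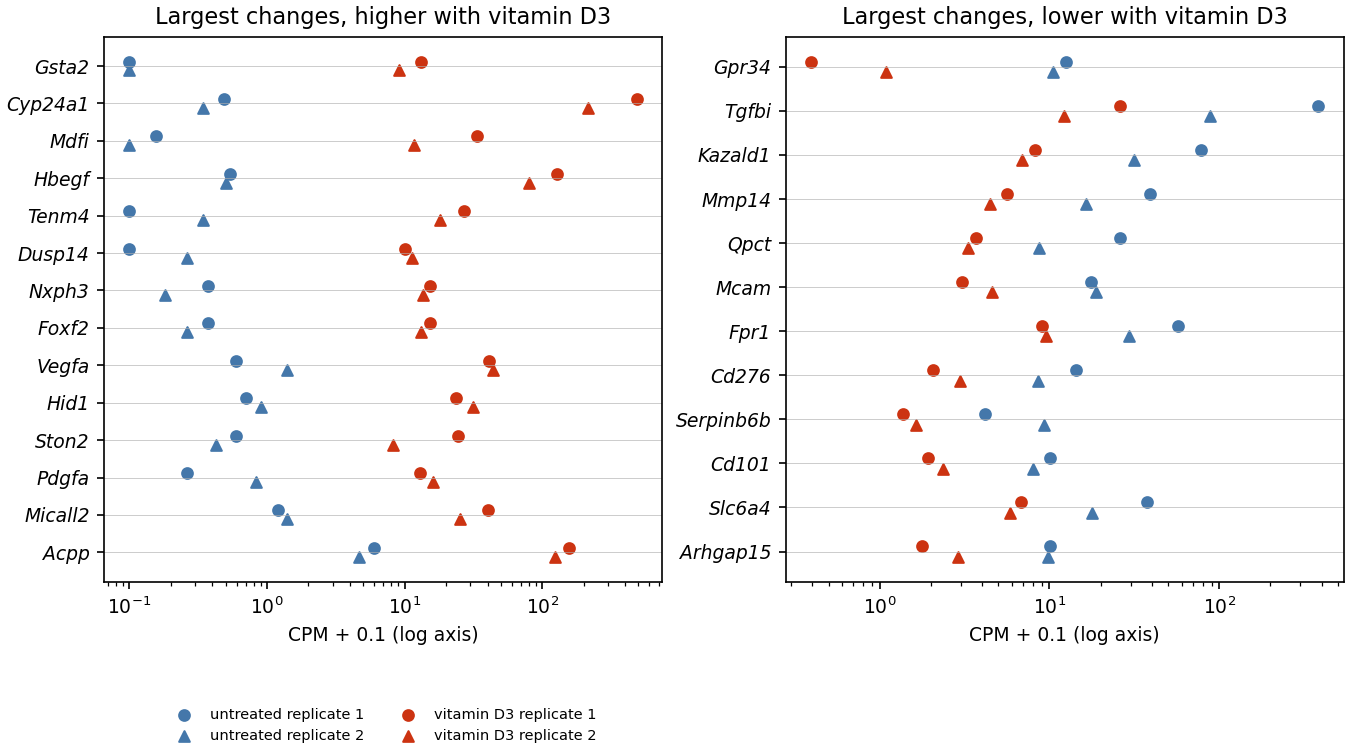
Level of the 14 genes with the furthest rise (left panel) and of 12 of the 14 with the furthest fall (right panel) by the fixed rule, as CPM plus 0.1 on a log axis; circles are replicate 1, triangles replicate 2, blue untreated and red vitamin D3. The rule admits only genes whose red and blue points do not overlap, and in the right panel the untreated libraries differ most from each other for Tgfbi.

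Among the genes that fell, Gpr34 stood at 12.4 and 10.4 CPM untreated and at 0.295 and 0.984 CPM with vitamin D3 (log2 fold change -4.25 ± 0.39, edgeR adjusted p = 6.47e-05). Tgfbi stood at 383 and 87.9 CPM untreated and at 26 and 12.1 CPM with vitamin D3 (log2 fold change -3.61 ± 0.54, edgeR adjusted p = 0.00136). The untreated libraries were far apart for Tgfbi, yet the lower of them still lay above both treated ones. Fpr1, a receptor for bacterial formylated peptides, went from 57 and 29.5 CPM to 8.9 and 9.41 CPM (log2 fold change -2.25 ± 0.24, edgeR adjusted p = 0.000134). Kazald1, a secreted protein with a Kazal-type domain, fell by 2.86 on the log2 scale, and Mcam, an adhesion molecule, by 2.30. Cd101, Slc6a4 (the serotonin transporter) and Arhgap15 (a GTPase-activating protein) fell by 2.17, 2.16 and 2.15.

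Mmp14 (a membrane-bound metalloproteinase), Qpct, Cd276 and Serpinb6b also belonged to the 14 genes with the furthest fall, with log2 fold changes from -2.49 to -2.22, but lost their calls without some library. Without untreated replicate 1 the edgeR adjusted p was 0.0876 for Mmp14, 0.373 for Qpct and 0.0776 for Cd276. Without untreated replicate 2 it was 0.115 for Serpinb6b. Without vitamin D3 replicate 1 it was 0.204 for Qpct, 0.111 for Cd276 and 0.148 for Serpinb6b, and without vitamin D3 replicate 2 it was 0.137 for Qpct and 0.0532 for Serpinb6b. The predicted gene Gm18853, left out of the rule, had 310 counts untreated and 0 with vitamin D3 (at least 117-fold lower). It was also at 0 in 1 fresh wild-type library at 4 weeks and at 21.1 CPM in the other, so that it varied between libraries of 1 group.

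**Figure D4:**
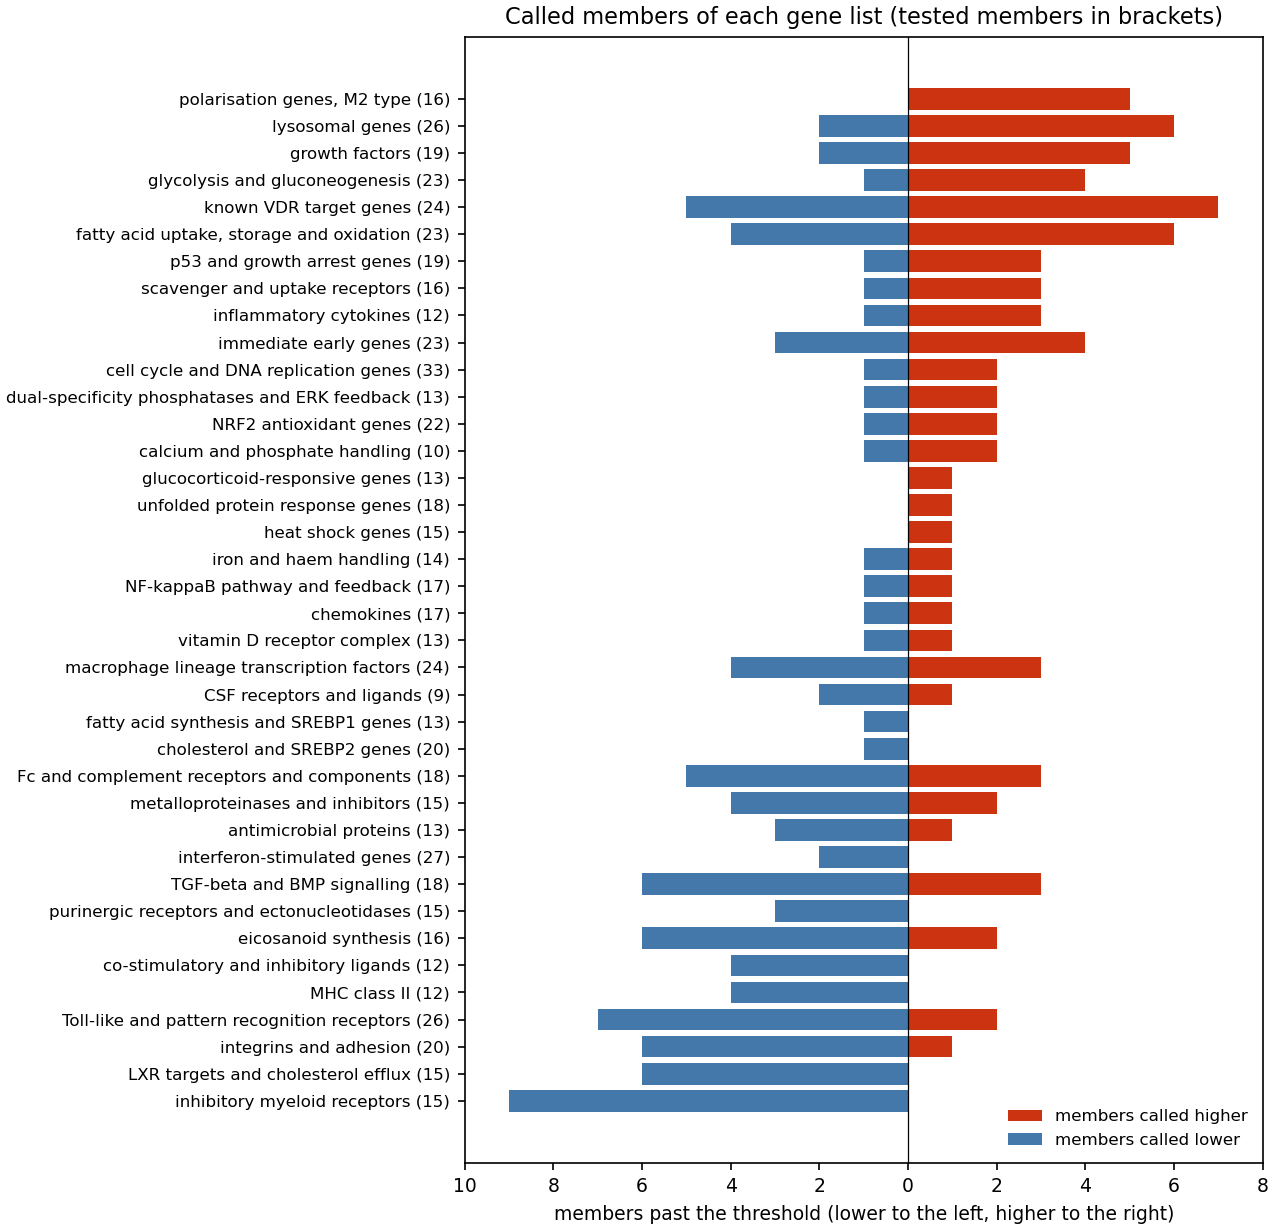
Members of each list of genes of known function with at least 9 tested members that passed the threshold, higher to the right in red and lower to the left in blue, with the number tested in brackets. Inhibitory myeloid receptors, with 9 of 15 lower, lie at the bottom, and M2-type polarisation genes, with 5 of 16 higher, lie at the top.

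Many receptors that dampen myeloid activation fell. Of 15 tested, 9 fell and 0 rose (60%, against 10.6% of all genes), with a median log2 fold change of -0.58, and 3 kept their call without any 1 culture library. Clec12a, an inhibitory C-type lectin, went from 43.8 and 26.1 CPM to 10.7 and 11.2 CPM (log2 fold change -1.68 ± 0.21, edgeR adjusted p = 0.000365). Cd200r1, the receptor for CD200, fell by 0.81 and Milr1, an inhibitory receptor first described on mast cells, by 0.58 on the log2 scale. The treated libraries were lower than the untreated ones for all 3. Lilrb3, Lilrb4, Lair1, Sirpa, Pilra and Clec4a2 made up the rest of the 9, and each of them lost its call without at least 1 library. The count of the list was 3 without vitamin D3 replicate 1, 5 without untreated replicate 1, 7 without vitamin D3 replicate 2 and 9 without untreated replicate 2.

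Genes of antigen presentation fell or did not pass the test. Of 12 tested MHC class II genes, 4 fell and 0 rose (33.3%), with a median log2 fold change of -1.15. H2-DMa, which helps to load peptide onto class II molecules, went from 59 and 43.5 CPM to 30.5 and 28.5 CPM (log2 fold change -0.80 ± 0.14, edgeR adjusted p = 0.00399). It was the only one of the 4 to keep its call throughout. Ciita, the transactivator of class II genes, stood at 2.08 and 1.13 CPM untreated and 0.344 and 0.211 CPM with vitamin D3 (log2 fold change -2.50 ± 0.57), and its edgeR adjusted p of 0.0162 rose to 0.173 without untreated replicate 1, 0.0961 without vitamin D3 replicate 1 and 0.0673 without vitamin D3 replicate 2. The list held 1 call without untreated replicate 1 or without vitamin D3 replicate 2, 2 without vitamin D3 replicate 1 and 6 without untreated replicate 2. H2-Aa, a chain of the class II molecule itself, stood at 60.4 and 16.9 CPM untreated and 22.4 and 8.57 CPM with vitamin D3. The untreated libraries differed from each other, the groups overlapped, and the gene did not pass the test (edgeR adjusted p = 0.225). Dendritic cells also carry class II. Their 14 listed markers summed to 42.8 and 39.2 CPM untreated and to 29.99 and 32.95 CPM with vitamin D3. Flt3 and Zbtb46, which define them, stood at no more than 0.729 and 0.492 CPM, and 0 of the 12 that were tested passed. The 16 listed markers of monocytes and interstitial macrophages, which also carry class II, summed to 160.2 and 136.4 CPM untreated and to 89.65 and 84.2 CPM with vitamin D3. The part of either cell type in the class II values was not tested.

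Of 12 tested co-stimulatory and inhibitory ligands, 4 fell and 0 rose (33.3%), with a median log2 fold change of 0.29. Icosl, the ligand of the T cell co-stimulator ICOS, went from 14.3 and 10.4 CPM to 3.54 and 3.58 CPM (log2 fold change -1.81 ± 0.18, edgeR adjusted p = 8.93e-05). Both treated libraries were below both untreated ones, and Icosl alone kept its call without any 1 culture library. Cd80 and Cd86, the ligands of CD28, had log2 fold changes of 0.18 and 0.53 and did not pass the test. The list held 1 call without untreated replicate 1 and 2 without vitamin D3 replicate 1.

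Some receptors of innate recognition fell. Of 26 tested Toll-like and other pattern recognition genes, 7 fell and 2 rose (34.6%), with a median log2 fold change of -0.28. Clec4e (Mincle), which recognises mycobacterial glycolipid, stood at 158 and 155 CPM untreated and 44.8 and 64.8 CPM with vitamin D3 (log2 fold change -1.52 ± 0.23, edgeR adjusted p = 0.00164). Tlr8, an endosomal Toll-like receptor, went from 169 and 109.8 CPM to 55.9 and 55.1 CPM (log2 fold change -1.33 ± 0.22, edgeR adjusted p = 0.00279). These were the genes of the list that kept their calls, and for both the groups did not overlap. Tlr4, the endotoxin receptor, had a log2 fold change of -0.82 ± 0.18 and an edgeR adjusted p of 0.0137, which became 0.152 without vitamin D3 replicate 1. Tlr5, the flagellin receptor, had one of -1.01 ± 0.23, and its adjusted p became 0.0692 without untreated replicate 2 and 0.191 without vitamin D3 replicate 1. Cd14, the co-receptor of Tlr4 and a vitamin D target in human monocytes, had a log2 fold change of 0.42 and did not pass the test. The count of the list was 2 without vitamin D3 replicate 1, 4 without either untreated library and 6 without vitamin D3 replicate 2.

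Among Fc receptors and complement genes, 5 of 18 tested fell and 3 rose (44.4%), with a median log2 fold change of -0.37. Fcgr1, the high-affinity IgG receptor, went from 12.3 and 13.5 CPM to 1.87 and 4.57 CPM (log2 fold change -2.06 ± 0.28, edgeR adjusted p = 0.000632). Fcgrt, the neonatal Fc receptor that recycles IgG, went from 109.6 and 107 CPM to 51 and 57.3 CPM (log2 fold change -1.0 ± 0.10). Both fell with no overlap of the groups. Cfp, encoding properdin, which stabilises the alternative complement pathway convertase, went from 22.9 and 15.1 CPM to 126 and 69.9 CPM (log2 fold change 2.36 ± 0.27, edgeR adjusted p = 0.000233), while Cfb, encoding factor B of the same pathway, fell by 1.40 on the log2 scale. C3 was higher, at 477 and 274 CPM untreated and 1967 and 727 CPM with vitamin D3, but lost its call without untreated replicate 2 (edgeR adjusted p = 0.101) or vitamin D3 replicate 1 (0.221). The list held 5 calls without vitamin D3 replicate 1.

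Inflammatory cytokines did not move as 1 group. Of 12 tested, 3 rose and 1 fell (33.3%), with a median log2 fold change of -0.12. Lif, encoding leukaemia inhibitory factor, went from 3.01 and 2.83 CPM to 37.8 and 32.8 CPM (log2 fold change 3.59 ± 0.39, edgeR adjusted p = 0.000176). Il18 fell from 77.9 and 103 CPM to 41 and 45.5 CPM (log2 fold change -1.06 ± 0.14, edgeR adjusted p = 0.00046). Il1a was higher (log2 fold change 0.91), with an edgeR adjusted p of 0.0733 without untreated replicate 1 and 0.0589 without vitamin D3 replicate 1. Il1rn, the antagonist of the same receptor, was also higher (0.93), with an adjusted p of 0.101 without untreated replicate 2 and 0.101 without vitamin D3 replicate 2. Tnf had a log2 fold change of 0.23 and did not pass the test, and Il6 and Il10 were under the filter, Il10 with 0 counts in all 4 culture libraries.

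Of 17 tested chemokines, 1 rose and 1 fell (11.8%, near the 10.6% of all genes), with a median of 0. Ccl6, a chemokine abundant in alveolar macrophages, went from 412 and 533 CPM to 2516 and 1879.9 CPM (log2 fold change 2.22 ± 0.17, edgeR adjusted p = 2.35e-05). It had stood at 3166 and 3928 CPM in fresh wild-type cells at 10 weeks and 3788 and 4149.8 CPM at 4 weeks, above both culture conditions. Cxcl14 fell from 34.8 and 12.8 CPM to 6.84 and 3.86 CPM (log2 fold change -2.14 ± 0.40), and its untreated libraries were themselves far apart. Of 17 tested genes of the NF-kappaB pathway 1 rose and 1 fell (11.8%), and of 27 tested interferon-stimulated genes 2 fell (7.41%). None of those 4 calls held without each culture library in turn. The medians of these lists were -0.28 and -0.41. Without vitamin D3 replicate 1 they held 0 and 1 calls, without untreated replicate 1 they held 1 and 0, and without vitamin D3 replicate 2 they held 4 and 2.

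Genes of leukotriene synthesis were among those that fell. Of 16 tested eicosanoid genes, 6 fell and 2 rose (50%), with a median log2 fold change of -0.64. Alox5, the 5-lipoxygenase that starts leukotriene synthesis, stood at 114 and 84.9 CPM untreated and 28.3 and 34.9 CPM with vitamin D3 (log2 fold change -1.66 ± 0.15, edgeR adjusted p = 6.47e-05). Alox5ap, the protein that presents arachidonic acid to it, went from 382 and 301 CPM to 178 and 133 CPM (log2 fold change -1.14 ± 0.15, edgeR adjusted p = 0.0005). Both treated libraries were below both untreated ones. Ltc4s, the leukotriene C4 synthase, was lower by 0.50 on the log2 scale, with an edgeR adjusted p of 0.193 without untreated replicate 2, 0.143 without vitamin D3 replicate 1 and 0.137 without vitamin D3 replicate 2. Pla2g7, the platelet-activating factor acetylhydrolase, rose from 193 and 98.3 CPM to 644 and 433 CPM (log2 fold change 1.89 ± 0.35, edgeR adjusted p = 0.00556). The list held 3 calls without vitamin D3 replicate 1 and 5 without untreated replicate 2.

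Genes of fatty acid metabolism moved in both directions. Of 23 tested genes of fatty acid uptake, storage and oxidation, 6 rose and 4 fell (43.5%), with a median log2 fold change of 0.02, and 8 of the 10 kept their call throughout. Cd36, the fatty acid translocase and scavenger receptor, went from 1261 and 1228 CPM to 3873 and 3110.2 CPM (log2 fold change 1.49 ± 0.13, edgeR adjusted p = 4.69e-05). Dgat1, which completes triglyceride synthesis, went from 38.2 and 58.9 CPM to 225 and 175 CPM (log2 fold change 2.05 ± 0.20, edgeR adjusted p = 7.83e-05). Pdk4, a brake on pyruvate oxidation, Ppargc1b, a mitochondrial co-activator, and Hadhb, a subunit of the mitochondrial trifunctional protein, rose by 2.54, 1.44 and 0.66 on the log2 scale. Fabp4, a fatty acid binding protein, fell from 599.5 and 978 CPM to 188 and 347 CPM (log2 fold change -1.56 ± 0.28). Cpt1a, which carries long-chain fatty acids into mitochondria, and Ucp2, a mitochondrial carrier, fell by 0.71 and 0.57.

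Among targets of the liver X receptor (LXR) and genes of cholesterol efflux, the calls were all lower. Of 15 tested, 6 fell and 0 rose (40%), with a median log2 fold change of -0.50. Nr1h3, which encodes LXR-alpha, went from 71.5 and 86.1 CPM to 23.9 and 46.8 CPM (log2 fold change -1.16 ± 0.24, edgeR adjusted p = 0.00841). Its known targets Mylip, a ubiquitin ligase for the LDL receptor, and Pltp, a phospholipid transfer protein, fell by 1.46 and 1.67. Abca1, the cholesterol exporter, stood at 52.6 and 18.7 CPM untreated and 13.4 and 8.57 CPM with vitamin D3, and its edgeR adjusted p of 0.0408 became 0.443 without untreated replicate 1, 0.119 without vitamin D3 replicate 1 and 0.173 without vitamin D3 replicate 2. The list held 3 calls without untreated replicate 1 or without vitamin D3 replicate 1. Of 20 tested genes of cholesterol synthesis 1 fell (5%), and of 13 tested of fatty acid synthesis 1 fell (7.69%), both shares below the 10.6% of all genes. Neither call held in all of the fits without 1 library, and both were lost without untreated replicate 1. Of 16 tested scavenger receptors, 3 rose and 1 fell (25%). Besides Cd36, Scarb1, the HDL receptor, kept its call and fell by 0.66, and the scavenger list held 2 calls without vitamin D3 replicate 1.

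Of 23 tested glycolysis genes, 4 rose and 1 fell (21.7%), with a median log2 fold change of 0.27. Ldha, lactate dehydrogenase A, went from 700.2 and 1111 CPM to 1977 and 2675 CPM (log2 fold change 1.36 ± 0.19, edgeR adjusted p = 0.000895), and Slc2a6, a hexose transporter of lysosomes, from 61.6 and 51.4 CPM to 221 and 173 CPM (log2 fold change 1.80 ± 0.27). The groups did not overlap for either. The list held 3 calls without untreated replicate 1 and 8 without untreated replicate 2. Of 26 tested lysosomal genes, 6 rose and 2 fell (30.8%), with a median of 0.13. Neu1, a sialidase, and Ctsb, cathepsin B, rose by 0.66 and 0.60 and kept their calls, and the list held 3 calls without untreated replicate 1 or without vitamin D3 replicate 1.

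Of 22 tested antioxidant genes under NRF2, 2 rose and 1 fell (13.6%), and of 14 tested genes of iron and haem handling 1 rose and 1 fell (14.3%). Hmox1, haem oxygenase, belongs to both and rose by 0.93, with an edgeR adjusted p of 0.0683 without vitamin D3 replicate 1. Without that library 0 genes of either list passed the test. Of 15 tested heat shock genes 1 rose (6.67%), Hsph1, which went from 33.3 and 39.2 CPM to 168 and 131 CPM (log2 fold change 2.05 ± 0.27, edgeR adjusted p = 0.000563). Of 18 tested genes of the unfolded protein response 1 rose (5.56%), Ddit3, which lost its call without untreated replicate 1 (edgeR adjusted p = 0.132) or vitamin D3 replicate 1 (0.0865). That list had a positive log2 fold change for 16 of its 18 genes, and held 4 calls without untreated replicate 2. Klf9, the 1 gene to rise of 13 tested glucocorticoid-responsive genes (7.69%), went from 11 and 8.58 CPM to 68.3 and 34.9 CPM (log2 fold change 2.39 ± 0.27, edgeR adjusted p = 0.000188). Apart from these single genes, the shares of these lists lay close to or below the 10.6% of all genes.

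Adhesion receptors gave more genes that fell than rose. Of 20 tested integrins and adhesion genes, 6 fell and 1 rose (35%), with a median log2 fold change of -0.24. Icam1, the ligand of the leukocyte integrins, went from 139 and 103 CPM to 47.8 and 57.8 CPM (log2 fold change -1.20 ± 0.17, edgeR adjusted p = 0.000895). Itga4 and Itgb5, integrin chains that bind VCAM-1 or fibronectin and vitronectin, fell by 1.17 and 1.01. Itgam, the CD11b chain, was also lower, at 118 and 53.4 CPM untreated and 18.6 and 26.9 CPM with vitamin D3, but its edgeR adjusted p became 0.136 without untreated replicate 1 and 0.131 without vitamin D3 replicate 1. Monocytes also carry Itgam, and the part of the lower monocyte sum given above was not tested. The list held 3 calls without vitamin D3 replicate 1.

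Of 15 tested metalloproteinases and inhibitors, 4 fell and 2 rose (40%), with a median of 0. Mmp13, a collagenase, went from 1.92 and 0.567 CPM to 15 and 25.4 CPM (log2 fold change 3.95 ± 0.53, edgeR adjusted p = 0.000595), and Mmp19 from 107 and 113 CPM to 323 and 248 CPM (log2 fold change 1.38 ± 0.17). Adam10, a sheddase, fell by 0.79. The list held genes that changed in both directions.

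Of 18 tested genes of TGF-beta and BMP signalling, 6 fell and 3 rose (50%), with a median log2 fold change of -0.58. The receptor gene Tgfbr2 rose from 922 and 1001 CPM to 1674 and 1488 CPM (log2 fold change 0.72 ± 0.10, edgeR adjusted p = 0.000788), and Smad2, which relays its signal, rose by 0.53. Besides Tgfbi, a product known to be induced by the pathway, Id2, a target of BMP signalling, fell from 737 and 679.9 CPM to 411 and 369 CPM (log2 fold change -0.86 ± 0.14). The list held 5 calls without vitamin D3 replicate 1 and 6 without untreated replicate 1. Of 15 tested purinergic and related receptors and ectonucleotidases, 3 fell and 0 rose (20%). Besides Gpr34, which keeps its call, these were Entpd1 (-0.99, adjusted p = 0.0513 without vitamin D3 replicate 1) and P2ry12 (-0.94, edgeR adjusted p = 0.0431), which passed the test only with all libraries or without untreated replicate 2 (0.358, 0.185 and 0.129 without the others). The list held 1 call without vitamin D3 replicate 1.

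Plk2 and Gadd45a rose among growth arrest genes. Of 19 tested p53 and growth arrest genes, 3 rose and 1 fell (21.1%), with a median of 0.13. Plk2, a kinase induced by stress and p53, went from 51.9 and 58.9 CPM to 431 and 454 CPM (log2 fold change 3.0 ± 0.23, edgeR adjusted p = 2.35e-05). The treated libraries lay close together and far above the untreated ones. Cdkn1a, encoding the cell cycle inhibitor p21 and known as a vitamin D target in other cells, had a log2 fold change of 0.41 and did not pass the test. Of 33 tested genes of the cell cycle and DNA replication, 2 rose and 1 fell (9.09%), with a median of 0.54, and 31 of the 33 had a positive log2 fold change. Ccnd2, encoding cyclin D2, rose from 101 and 127 CPM to 329 and 314 CPM (log2 fold change 1.50 ± 0.24, edgeR adjusted p = 0.002). The replication helicase gene Mcm5 stood at 12.1 and 10.7 CPM untreated and 40.9 and 19.5 CPM with vitamin D3, a larger difference in replicate 1 than in replicate 2, and its edgeR adjusted p became 0.0841 without untreated replicate 1, 0.0843 without untreated replicate 2 and 0.253 without vitamin D3 replicate 1. Without vitamin D3 replicate 2 the list held 17 calls, and without any other culture library it held 2. Top2a, a topoisomerase of dividing cells, stood at 10.5 and 7.69 CPM untreated and 25.3 and 7.94 CPM with vitamin D3, so that only vitamin D3 replicate 1 lay above both untreated libraries.

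Of 23 tested immediate early genes, 4 rose and 3 fell (30.4%), with a median of 0.20. Jund, an AP-1 subunit, rose from 142 and 191 CPM to 325 and 360.3 CPM (log2 fold change 1.04 ± 0.13, edgeR adjusted p = 0.000419), and Nr4a1, an orphan nuclear receptor, fell from 6.02 and 5.99 CPM to 1.48 and 2.04 CPM (log2 fold change -1.79 ± 0.29). Of 13 tested dual-specificity phosphatases and other feedback genes of ERK signalling, 2 rose and 1 fell (23.1%), and 0 of these 3 calls held throughout, with 0 calls left without untreated replicate 1 and 1 without untreated replicate 2 or vitamin D3 replicate 1. The list of 10 tested genes of calcium and phosphate handling held 2 that rose and 1 that fell (30%). Slc20a1, a sodium-phosphate cotransporter, rose from 60.6 and 58.1 CPM to 142 and 109.7 CPM (log2 fold change 1.08 ± 0.14, edgeR adjusted p = 0.00046). Immediate early genes held 3 calls without vitamin D3 replicate 1 and 4 without either untreated library, and the calcium and phosphate list held 1 without vitamin D3 replicate 1.

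Genes of macrophage identity changed in part. Of 24 tested lineage transcription factors and related genes, 3 rose and 4 fell (29.2%), with a median of -0.08. Those that rose include Car4, a carbonic anhydrase and not a transcription factor, which is also counted with the alveolar macrophage markers below. Irf4, a factor of alternative activation, went from 5.85 and 3.64 CPM to 84.6 and 39.2 CPM (log2 fold change 3.68 ± 0.44, edgeR adjusted p = 0.000321). Pparg, the factor that alveolar macrophages depend on, stood at 150.3 and 169 CPM untreated and 193 and 139.7 CPM with vitamin D3, and the groups overlapped. Bach1, a haem-sensing repressor, fell by 0.79. This list held 4 calls without vitamin D3 replicate 1. Csf1r, the receptor for M-CSF, fell from 786 and 456 CPM to 249.8 and 259 CPM (log2 fold change -1.29 ± 0.19, edgeR adjusted p = 0.00134), and Csf3r, the receptor for G-CSF, from 26.9 and 19.3 CPM to 7.38 and 8.5 CPM (log2 fold change -1.55 ± 0.17). Both receptors were lower in both treated libraries. They were the members that fell of the 9 tested CSF receptors and ligands, of which 1 rose (33.3% in all).

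Of 16 tested genes of M2-type polarisation, 5 rose and 0 fell (31.2%), with a median of -0.04. Tgm2, a transglutaminase, went from 524 and 436 CPM to 2533 and 1749 CPM (log2 fold change 2.16 ± 0.21, edgeR adjusted p = 8.62e-05). Il4ra, a chain of the interleukin 4 receptor, went from 56.6 and 53 CPM to 120.3 and 113 CPM (log2 fold change 1.09 ± 0.12, edgeR adjusted p = 0.000176). Together with Irf4 these kept their calls, and the list held 3 calls without any 1 of untreated replicate 1, untreated replicate 2 and vitamin D3 replicate 1. Chi3l3 (Ym1), another gene of the list, stood at 5387 and 5744 CPM untreated and 5671 and 5044 CPM with vitamin D3, and the groups overlapped. Of 13 tested antimicrobial genes, 3 fell and 1 rose (30.8%), with a median of -0.63. Ncf1, a cytosolic subunit of the phagocyte NADPH oxidase, rose from 326 and 301 CPM to 994 and 663 CPM (log2 fold change 1.40 ± 0.16, edgeR adjusted p = 0.000186), and Cybb, its membrane subunit, fell from 4255 and 3040.3 CPM to 1695 and 2090.1 CPM (log2 fold change -0.95 ± 0.15, edgeR adjusted p = 0.00172). These subunits of 1 enzyme moved in opposite directions. The antimicrobial list held 2 calls without untreated replicate 1 or without vitamin D3 replicate 2.

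The label of the cells was set beside the levels of markers. The filter took in all 12 libraries, fresh ones included, so passing it does not show that a gene was present in culture. All 26 alveolar macrophage markers of the list passed it, as did all 20 lung epithelial markers. The summed level of the alveolar macrophage markers was 36730 and 36600 CPM untreated and 34240 and 33000 CPM with vitamin D3. Siglec5 (the gene of Siglec-F) stood at 612 and 458 CPM untreated and 814 and 542 CPM with vitamin D3, and Marco, a scavenger receptor, at 384 and 545 CPM untreated and 198 and 338 CPM with vitamin D3, and neither passed the test. Car4, a carbonic anhydrase on the surface of alveolar macrophages, was at 0.657 and 0.972 CPM untreated and 7.18 and 7.87 CPM with vitamin D3 (log2 fold change 3.24 ± 0.26, edgeR adjusted p = 3.17e-05), against 265 and 216 CPM in fresh wild-type cells at 10 weeks and 602 and 618 CPM at 4 weeks. It rose, but both culture conditions stayed far below the fresh cells. Krt79 fell from 119 and 81.1 CPM to 53.7 and 45 CPM (log2 fold change -1.02 ± 0.18). In all, 3 of the 26 markers rose and 4 fell (26.9%), with a median of -0.14. The list held 4 calls without vitamin D3 replicate 1 and 10 without vitamin D3 replicate 2.

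Markers of other cells were read in the same way, with 10.6% of all tested genes called. The 14 T cell and innate lymphoid markers in the count table summed to 238.4 and 274.6 CPM untreated and 154.4 and 248.1 CPM with vitamin D3, most of it from Cd2 and Il7r, while Cd3e stood at no more than 0.197 CPM in any culture library. Cd2, the only 1 of the 12 tested members that passed (8.33%), fell from 217 and 225 CPM to 120.2 and 135 CPM (log2 fold change -0.79 ± 0.11). The list leaned the other way, with a median log2 fold change of 0.71, 7 positive and 5 negative. The 13 neutrophil markers in the table summed to 73.6 to 87.5 CPM in the 4 libraries, and 1 of the 7 tested fell (14.3%). Of the 8 tested monocyte and interstitial macrophage markers, Nr4a1, Ace and Treml4 fell (37.5%), with a median log2 fold change of -1.18. Only Nr4a1 kept its call throughout. Ace lost its call without untreated replicate 2 or vitamin D3 replicate 1. Treml4 (edgeR adjusted p = 0.0492) lost it without untreated replicate 1, vitamin D3 replicate 1 or vitamin D3 replicate 2. Ly6c2, which defines inflammatory monocytes, stood at no more than 0.443 CPM in the culture libraries, and Lyve1 of interstitial macrophages had 0 counts. Ncr1 of NK cells, Elane of neutrophils and Retnlg had 0 counts in all 4 culture libraries. Of the tested markers of B cells (2), of mast cells, basophils and eosinophils (2) and of erythroid cells (9), 0 passed the test. Klrb1c, 1 of 2 tested NK cell markers (50%), was higher, at 0.164 and 0.081 CPM untreated and 4.48 and 1.19 CPM with vitamin D3, with an edgeR adjusted p of 0.176 without untreated replicate 1, 0.159 without untreated replicate 2 and 0.363 without vitamin D3 replicate 1.

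Of the 20 lung epithelial markers, all tested, 2 rose (10%) and 14 had a negative log2 fold change, with a median of -0.34. They summed to 61.8 and 59.7 CPM untreated and to 128.5 and 101.5 CPM with vitamin D3. Most of this difference came from Cdh1 and Pdpn, the 2 that passed the test. Pdpn, encoding podoplanin, went from 13.5 and 12.1 CPM to 48.9 and 36.2 CPM (log2 fold change 1.73 ± 0.21, edgeR adjusted p = 0.000372). Cdh1, encoding E-cadherin, was at 21.6 and 18 CPM untreated and 50.4 and 40.3 CPM with vitamin D3, and its call was lost without untreated replicate 1 (edgeR adjusted p = 0.0531), untreated replicate 2 (0.082) or vitamin D3 replicate 1 (0.134). The epithelial gene Epcam stood at 4.76 and 1.3 CPM untreated and 1.77 and 1.33 CPM with vitamin D3, and Sftpc, the surfactant protein C gene, at no more than 0.492 CPM in any of the 4 libraries. The groups overlapped for both. Pdgfra, a receptor for platelet-derived growth factor and a stromal marker, rose from 0.657 and 1.38 CPM to 11.7 and 15.7 CPM (log2 fold change 3.79 ± 0.56, edgeR adjusted p = 0.00125). It was 1 of 2 that rose among the 4 tested endothelial and stromal markers (50%). The other was the endothelial gene Vwf (edgeR adjusted p = 0.0415), which lost its call without untreated replicate 1, untreated replicate 2 or vitamin D3 replicate 1. The 15 listed markers summed to 345.7 and 320.9 CPM untreated and to 476.8 and 435.4 CPM with vitamin D3. Most of each sum came from Vwf alone. The endothelial genes Pecam1 and Cdh5 were under the filter, with 0, 0, 0 and 1 counts and with 0, 1, 1 and 11 counts in the 4 libraries.

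**Figure D5:**
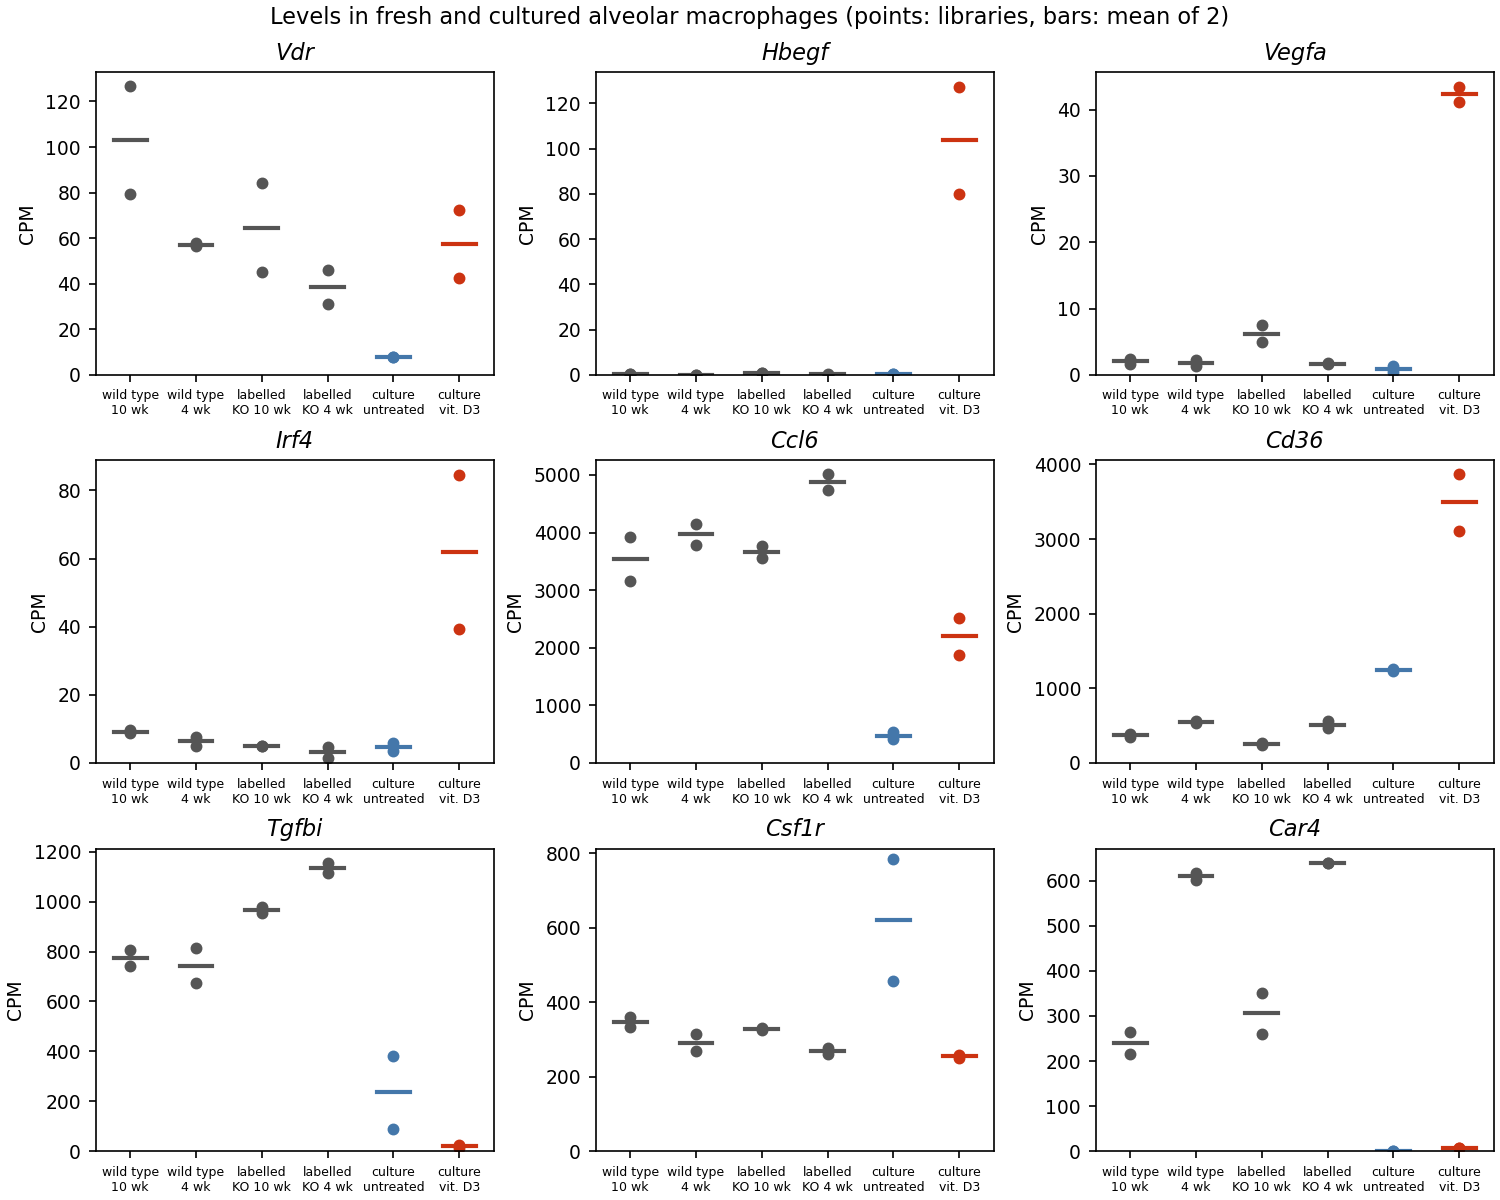
CPM of 9 genes in each of the 12 libraries (points) with the mean of each group of 2 (bars), in fresh macrophages (grey), untreated culture (blue) and culture with vitamin D3 (red). Hbegf, Vegfa and Irf4 are highest in the red group, Vdr and Ccl6 are lowest in untreated culture, and Car4 is highest in fresh cells.

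The cultured cells differed widely from fresh ones. Untreated culture against fresh wild type passed the test for 42.4% of genes at 10 weeks and 39.7% at 4 weeks in the edgeR fit. These comparisons share the untreated libraries with the vitamin D3 comparison, so levels are only set side by side. Hbegf stood at 127 and 79.9 CPM in the treated libraries and at no more than 0.683 CPM in each of the other libraries. Cd36 was at 395 and 345 CPM in fresh wild-type cells at 10 weeks and 539 and 564 CPM at 4 weeks, at 1261 and 1228 CPM in untreated culture and at 3873 and 3110.2 CPM with vitamin D3, so that its level was higher at each step. Tgfbi was at 744 and 805 CPM and 816 and 672 CPM in the same fresh libraries, at 383 and 87.9 CPM untreated and at 26 and 12.1 CPM with vitamin D3, so that it was lower at each step. For Csf1r the fresh wild-type libraries, at 359.8 and 334 CPM at 10 weeks and 314 and 268 CPM at 4 weeks, lay between the untreated cultures (786 and 456 CPM) and the treated ones (249.8 and 259 CPM).

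The genes that changed with vitamin D3 were also read in the fresh libraries labelled as knockout, which share no library with the cultures. Vdr counts were present in those libraries (31.2 to 84.2 CPM), and counts per gene do not show which exons they came from. For 2 of the 4 libraries at 10 weeks the description codes and the genotype labels conflict, so the direction of the 10-week values below is in doubt. Of the 638 genes that rose with vitamin D3, 46.6% had a lower level in the libraries labelled knockout than in wild type at 10 weeks and 45.8% at 4 weeks, against 51.5% and 51.1% of all tested genes. Of the 718 genes that fell with vitamin D3, 51.3% were higher in the libraries labelled knockout at 10 weeks and 47.5% at 4 weeks, against 48.4% and 48.8% of all tested genes. Few of these genes passed the test between the genotypes, which called 0.11% of all genes at 10 weeks and 0.667% at 4 weeks. Of the genes that rose, 1 was called higher at 10 weeks, and 8 higher and 4 lower at 4 weeks. Of the genes that fell, 2 were called higher at 10 weeks, and 7 higher and 8 lower at 4 weeks. Among all 12748 tested genes, 60 were called higher and 25 lower at 4 weeks. The share called at 4 weeks thus lay above the 0.667% of all genes in both sets, and this difference was not tested. The shares with the opposite direction were close to those of all genes, and no test was made of them.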

How the data were processed

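RNA-seq libraries of mouse alveolar macrophages were deposited by the authors as whole-number counts per gene and as a table of log2 values. Build mm9, edgeR and TopHat2 are listed, per the submitters' processing notes. Not given in the sources used here were tool versions, the program that counted reads, whether it used strand, and the gene models. The deposited log2 values are log2 of CPM plus 1 over 10631 genes and served as an alternative. The groups came from GEO's labels. For the 10-week fresh libraries the description codes and genotype labels conflict, and the genotype labels were used. The number of columns per sample left unused was 0.

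Counts were analysed in R 4.3.3 with edgeR 4.0.16: filterByExpr (minimum count 10, minimum total 15), TMM, and the quasi-likelihood F test in 1 fit of 6 groups with 6 residual degrees of freedom, with Benjamini-Hochberg adjustment at 0.05 over 12748 genes. Standard errors are the log2 fold change divided by the square root of F. The procedure was tested on simulated data. DESeq2 1.42.0 and limma 3.58.1 served as alternatives, beside other scalings, filters, sets of libraries and leaving out each culture library. Depth was 14023929 to 23233674 counts in the culture libraries and 10409572 to 19503047 in the fresh ones, and replicates differed by more than counting noise.

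Genes were named by rule: Vdr, Cyp24a1, the 14 largest called changes in each direction with groups that do not overlap and at least 5 CPM in the higher group (predicted genes and small RNAs left out), the 4 smallest p-values of each function list with a call, and, for each cell type, the 3 markers of highest level. Other genes named in the text were chosen after their values were seen, and a few genes that the rule names are not reported here. Members and lists were chosen with earlier results of these data known.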

Additional observations from a re-analysis of the deposited data

How the results depend on the processing

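The count of genes changed by vitamin D3 (1356, with 638 higher and 718 lower) was 644 in a fit of the 4 culture libraries alone, with 356 higher and 288 lower. That fit has fewer libraries from which to estimate the spread, and takes it from the cultures alone. Between replicates, the chi-square per degree of freedom was 39.1 in untreated and 27 in treated cultures. In fresh cells it was 14.4 (wild type) and 19.4 (knockout label) at 10 weeks, and 52.1 and 9.98 at 4 weeks. The part of either in the lower count was not tested. Of the 644 genes, 610 were among the 1356, all in the same direction. Leaving out 1 culture library gave 545 to 1345 genes, 314 to 656 higher and 231 to 689 lower. The lowest counts came without vitamin D3 replicate 1, and without untreated replicate 1 the counts were 811, 404 and 407. The source names of the culture libraries match for the letter a and differ for the letter b, so the pairing by letter is in doubt. With that letter as a replicate block, 1730 genes passed in the shared fit and 1979 in the culture libraries alone. The a minus b differences of both conditions had r = 0.272 across 12748 genes, which are not independent, from 2 pairs. DESeq2 called 1605 genes, DESeq2 size factors in edgeR 1357, library totals without TMM 1310, no filter 1989 of 17620 genes, a filter at 5 CPM 1409, leaving out the 10-week libraries 1267, exchanging the conflicting 10-week labels 1178, and limma with the deposited log2 values called 1296. Thinning the culture libraries to equal totals, chosen after seeing the data, gave 1281. Under these alternatives 0 of the named genes changed sign while passing the test in the shared fit or in the alternative. Some named genes that did not pass changed sign, such as Cyp2r1, whose log2 fold change ran from -0.33 to 0.55 on leaving out 1 culture library. Of the 144 named genes that passed the test, 81 passed under every alternative that gave a value. The fit of the culture libraries alone lost 36 of them, among them Nr1h3, Ctsb and Cybb, the exchange of the 10-week labels lost 14, and P2ry12 was lost under 10 of 16 alternatives. With 2 libraries a side, changes that are small beside the spread between libraries cannot be seen.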

Other observations

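Genes outside the lists above also changed, and those named here were chosen after their values were seen, from the smallest p-values in each direction. Each kept its call without any 1 of the 4 culture libraries. Hif1a, the oxygen-sensitive subunit of hypoxia-inducible factor, went from 162 and 149 CPM untreated to 519.6 and 386 CPM with vitamin D3 (log2 fold change 1.54 ± 0.13, edgeR adjusted p = 3.43e-05). Both treated libraries stood well above both untreated ones. Dot1l, a histone H3 methyltransferase, went from 61.9 and 44.2 CPM to 292 and 224 CPM (log2 fold change 2.28 ± 0.16, edgeR adjusted p = 1.85e-05), and Rps6ka2, a kinase downstream of ERK, from 90.9 and 78.3 CPM to 281 and 287 CPM (log2 fold change 1.75 ± 0.11, edgeR adjusted p = 1.59e-05). Relt, a receptor of the TNF receptor family, rose by 2.68 on the log2 scale. Lat, an adaptor best known from T cell receptor signalling, rose from 2.41 and 3.08 CPM to 23.7 and 23 CPM, while Cd3e stood at no more than 0.197 CPM in any culture library.

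Among genes that fell, Kynu, the kynureninase of tryptophan breakdown, went from 86.5 and 103 CPM to 26.1 and 33.3 CPM (log2 fold change -1.67 ± 0.14, edgeR adjusted p = 3.45e-05). Cnr2, the peripheral cannabinoid receptor, went from 83.4 and 79.2 CPM to 30.6 and 37 CPM (log2 fold change -1.27 ± 0.12, edgeR adjusted p = 8.68e-05). The groups did not overlap for either gene. Pros1, encoding protein S, a ligand of receptors that clear dead cells, fell by 1.14 on the log2 scale. Rnase6, an antimicrobial ribonuclease, fell by 2.09, and Trf, encoding transferrin, by 0.97. Cdc42ep3, an effector of CDC42, fell from 63.6 and 63.3 CPM to 23.8 and 25.2 CPM (log2 fold change -1.37 ± 0.11, edgeR adjusted p = 3.17e-05).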
